A study of Homo sapiens with 5 samples.

Results

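The 9 genes described here belong to the insulin-like growth factor (IGF) system: the ligand IGF2, the receptors IGF1R and IGF2R, and the binding proteins IGFBP2, IGFBP3, IGFBP4, IGFBP5, IGFBP6 and IGFBP7. They were chosen by name, not by their values, though with earlier results of these data known. All 9 were among the 26364 gene names of the normalized count table. They were also among the 11313 names that averaged 10 or more normalized counts, the ones tested. IGF2 is a secreted peptide hormone of growth that signals through IGF1R, a receptor tyrosine kinase at the cell surface. IGF2R carries IGF2 to lysosomes for breakdown and also sorts enzymes tagged with mannose 6-phosphate, and the binding proteins hold IGFs in the extracellular space, where proteases release them. Fibroblasts secrete several of these binding proteins, and some of them are known components of what senescent cells secrete.

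The data were mRNA-seq of growing IMR-90 fibroblasts, normal cells of human lung with a finite lifespan in culture that were kept in medium with serum, collected 24 hr after siRNA transfection. Ctr-KD cells (2 libraries) received a control siRNA aimed at luciferase, a gene that human cells lack. NSD2-KD cells (3 libraries) received NSD2-1, NSD2-2 or NSD2-3, siRNAs against the histone methyltransferase NSD2, with 1 library for each, so that siRNA and replicate cannot be told apart. All 5 libraries came from the same line, and the methods call the Ctr-KD libraries biological replicates. The p-values below measure only the spread between these libraries. Normalized counts are reads per gene divided by a factor for each library. The study asked which genes respond when NSD2 is lost.

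Reads on genes numbered between 2473691 and 2845063 a library, so that 3 reads, taken as the limit of detection, were worth 2.76 to 3.28 normalized counts. NSD2, listed as WHSC1, was at 463 and 443 in Ctr-KD cells and at 90.2, 81.9 and 87.9 with NSD2-1, NSD2-2 and NSD2-3. It fell by 2.37 on the log2 scale (standard error 0.12, adjusted p = 0.000464 in limma). Of 12 fibroblast markers, all had a read, and their summed normalized counts were 218000 to 223000 in Ctr-KD cells and 203000 to 229000 in NSD2-KD cells. Several defining markers of other cell types were at 0, among them PECAM1 and CDH5 for endothelial, PTPRC and CD3E for immune, and KRT5, SFTPC and NKX2-1 for epithelial cells. The summed levels were 130 to 141 and 99.6 to 156 for 5 endothelial markers (Ctr-KD, then NSD2-KD), nearly all from TEK, 71.0 to 80.0 and 60.5 to 105 for the immune markers, nearly all from CD68, and at most 3.90 for 6 epithelial markers. Between the Ctr-KD libraries the difference was close to counting noise, with a chi-square over its degrees of freedom of 1.05, against 3.87 to 5.29 for the other pairs of libraries. They were counted as 2 replicates, and their spread is small beside that of the NSD2-KD libraries.

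None of the 9 genes passed the adjusted threshold of 0.05 in limma, against 0.0884% of all tested genes (10 of 11313). The gene nearest to it was IGFBP5, which was higher with each NSD2 siRNA, and it was also the most abundant of the 9. At an unadjusted p under 0.05, IGFBP5 and IGF2R were higher and no member was lower, where 4.19% of all tested genes were higher, 4.99% lower and 9.18% in either direction. edgeR gave the same 2 members at that level and DESeq2 gave IGFBP5 alone, with 0 past the adjusted threshold in each. In 4 of the 9 genes the libraries of the groups did not overlap: IGFBP5, IGFBP6 and IGF2R were higher in all 3 NSD2-KD libraries (13.8% of all tested genes were), and IGFBP3 was lower in all 3 (13.9% were, and 27.7% in either direction). The median log2 difference was 0.08 over the 9 genes and -0.0089 over all tested genes, and 8 of the 9 (88.9%) were above 0, against 48.5% of all. With 2 and 3 libraries, the smallest p that an exact permutation test allows is 0.1. In bulk RNA, fewer cells of a kind and less RNA per cell cannot be told apart.

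**Figure D1:**
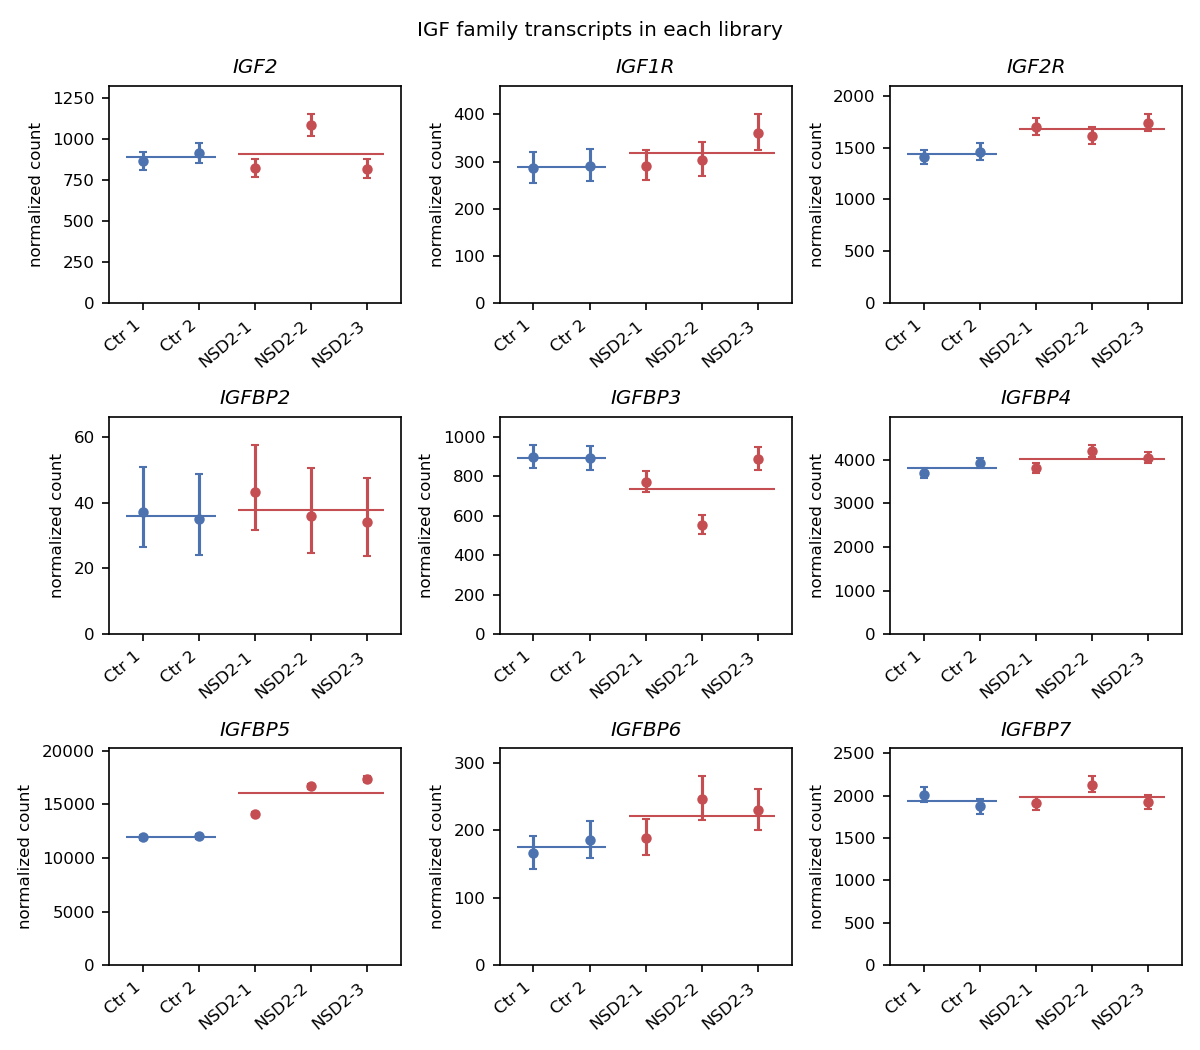
Normalized counts (y axis from 0, a panel for each of the 9 genes) in the 2 Ctr-KD (blue) and 3 NSD2-KD (red) libraries, with exact 95% Poisson intervals, which cover counting error only, as bars and group means as lines. The NSD2-KD points of IGFBP5, IGFBP6 and IGF2R all sit above both Ctr-KD points, and those of IGFBP3 below, with NSD2-3 only just so.

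**Figure D2:**
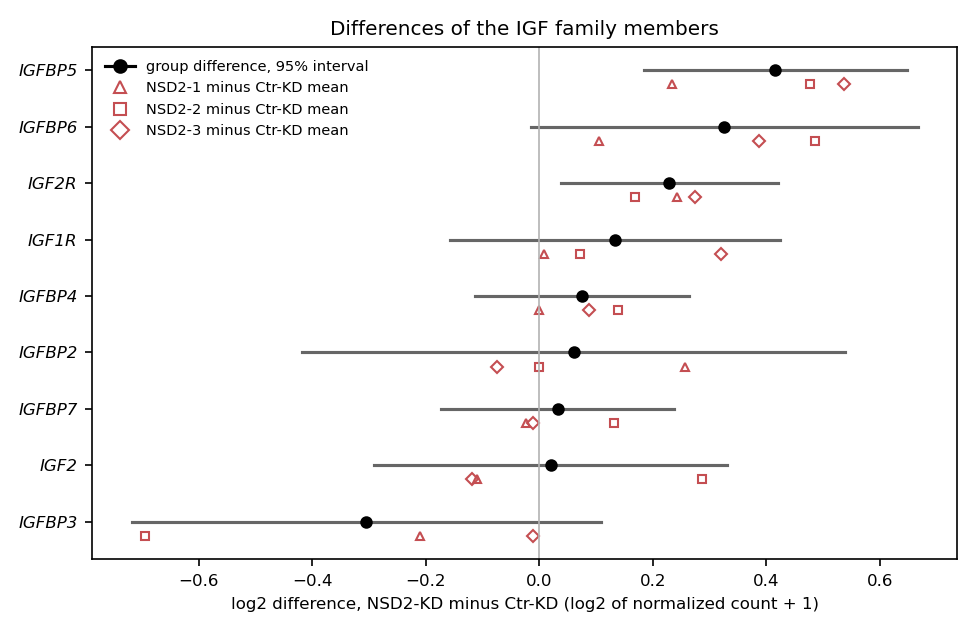
Log2 difference of each gene between NSD2-KD and Ctr-KD cells, with its 95% interval from limma and the position of each siRNA relative to the Ctr-KD mean. The intervals of IGFBP5 and IGF2R lie above 0, and those of the other 7 genes include 0.

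Among binding proteins, IGFBP5, which binds to the extracellular matrix as well as to IGFs, was at 11934 and 12017 normalized counts in Ctr-KD cells (11976 ± 58.9, SD, n = 2). NSD2-1, NSD2-2 and NSD2-3 gave 14075, 16677 and 17370 (16040 ± 1737, SD, n = 3), which are 118%, 139% and 145% of the Ctr-KD mean. The groups were apart, and NSD2-1 was the nearest to Ctr-KD cells. The log2 difference was 0.42 (95% interval 0.18 to 0.65, adjusted p = 0.267 in limma), so that it was not called over all tested genes. With quantile normalization the difference was 0.31 and the adjusted p was 0.0312, and over the 18 alternatives the adjusted p ran from 0.0312 to 1.00. IGFBP5 lies on the minus strand of chromosome 2, from 217536828 to 217560272 in GRCh37, and 487 of its exon bases are shared with DIRC3-AS1 on the other strand, which the table does not list.

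IGFBP6, which prefers IGF2 over IGF1, was at 166 and 185 in Ctr-KD cells and at 189, 246 and 229 with NSD2-1, NSD2-2 and NSD2-3. The lowest NSD2-KD library, with NSD2-1, was only just above the higher Ctr-KD library. The log2 difference was 0.33 (95% interval -0.014 to 0.67, adjusted p = 0.565 in limma). IGFBP3, the main carrier of IGFs in serum, was at 896 and 890 in Ctr-KD cells and at 772, 552 and 886 with NSD2-1, NSD2-2 and NSD2-3, or 86.4%, 61.8% and 99.2% of the Ctr-KD mean. With NSD2-3 it was within counting error of Ctr-KD cells, since the exact Poisson interval of that library, 830 to 946, holds both Ctr-KD values. Its log2 difference was -0.31 (95% interval -0.72 to 0.11, adjusted p = 0.672 in limma). It was -0.11 without the NSD2-2 library and -0.45 without the NSD2-3 library (adjusted p = 0.736 and 0.296 in limma).

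IGFBP6 lies on chromosome 12 from 53491220 to 53496129 (plus strand) and IGFBP3 on chromosome 7 from 45951844 to 45961473 (minus strand) in GRCh37, the latter 18584 bases from IGFBP1.

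The other binding proteins had overlapping groups. IGFBP4, a binding protein cleaved by PAPPA, was at 3700 and 3919 in Ctr-KD cells and at 3806, 4195 and 4047 with NSD2-1, NSD2-2 and NSD2-3, a log2 difference of 0.08 (95% interval -0.11 to 0.26). IGFBP7, a more distant relative that binds IGFs weakly, was at 2010 and 1877 against 1910, 2129 and 1928, a log2 difference of 0.03 (95% interval -0.17 to 0.24). IGFBP2 had few reads, with 37.2 and 35.0 normalized counts against 43.2, 36.0 and 34.2, and the interval of its log2 difference of 0.060, -0.42 to 0.54, is the widest of these 3. Adjusted p-values for IGFBP4, IGFBP7 and IGFBP2 were 0.836, 0.943 and 0.955 in limma. Exon bases of IGFBP7 are shared with IGFBP7-AS1 (94 bases) and POLR2B (260 bases), both on the other strand. The strand setting of the counting is not given in the sources used here, so that the reads of IGFBP7 and IGFBP7-AS1, whose reads equalled 27.6% to 29.8% of those of IGFBP7 in each library, cannot be told apart with certainty. In GRCh37, IGFBP4 lies on chromosome 17 from 38599702 to 38613977 (plus strand), IGFBP7 on chromosome 4 from 57896939 to 57976551 (minus strand) and IGFBP2 on chromosome 2 from 217497551 to 217529159 (plus strand), with 7668 bases between IGFBP2 and IGFBP5.

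The IGFBP reads of a library were mostly from IGFBP5. It took 63.7% and 63.5% of the reads on IGFBP2 to IGFBP7 in Ctr-KD cells (exact binomial intervals 63.0% to 64.3% and 62.8% to 64.2%) and 67.7%, 70.0% and 70.9% with NSD2-1, NSD2-2 and NSD2-3, the lowest of which had an interval of 67.1% to 68.3%. Intervals cover counting error only. Shares of reads are not corrected for length, and IGFBP5 has 6466 exon bases, against 2205 for IGFBP4 and 1930 for IGFBP7. Per kb of exon, the Ctr-KD means were 1852 for IGFBP5, 1728 for IGFBP4 and 1007 for IGFBP7. IGFBP3 took 4.78% and 4.70% in Ctr-KD cells and 3.71%, 2.31% and 3.62% in NSD2-KD cells. The ratio of IGFBP5 to IGFBP3 normalized counts was 13.3 and 13.5 in Ctr-KD cells and 18.2, 30.2 and 19.6 in NSD2-KD cells. Both the share of IGFBP3 and this ratio also depend on the level of IGFBP5. With NSD2-3 the normalized count of IGFBP3 itself was 886, against 896 and 890 in Ctr-KD cells. The summed normalized count of the 6 binding proteins was 18744 and 18923 against 20795, 23834 and 24495. Without IGFBP5 the sum was 6810 and 6905 against 6720, 7157 and 7125, which overlap, and the mean of IGFBP5 alone was higher by 4065 normalized counts.

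**Figure D3:**
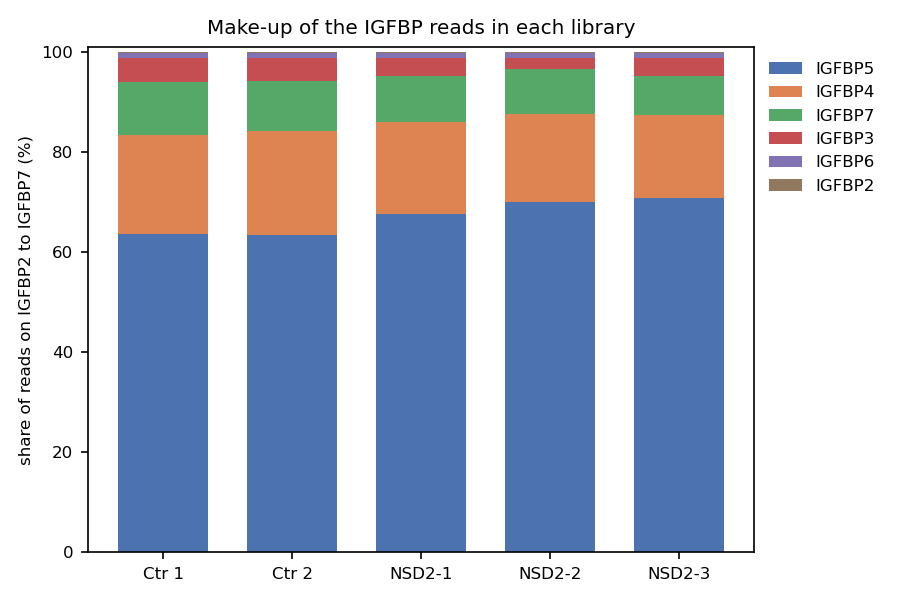
Share of each binding protein in the reads on IGFBP2 to IGFBP7 (percent, y axis) for each of the 5 libraries. IGFBP5 takes 63.5% to 63.7% in Ctr-KD cells and 67.7% to 70.9% in NSD2-KD cells. Shares are of reads, not corrected for exon length.

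IGF2R, the lysosomal sorting receptor, was at 1411 and 1458 in Ctr-KD cells and at 1697, 1612 and 1736 with NSD2-1, NSD2-2 and NSD2-3, which are 118%, 112% and 121% of the Ctr-KD mean. The 3 siRNAs gave similar values, and the groups were apart. The log2 difference was 0.23 (95% interval 0.037 to 0.42, adjusted p = 0.440 in limma), and the interval lies above 0 although the call over all genes was not reached. That depended on the test. The unadjusted p was 0.0246 in limma and 0.0317 in edgeR, but 0.119 in limma without the trend and 0.105 in DESeq2. The exons of IGF2R share 571 bases with the pseudogene CHP1P2, which the table does not list. IGF2R lies on chromosome 6 from 160390114 to 160534539 (plus strand) in GRCh37.

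IGF1R, the signaling receptor, was at 287 and 291 in Ctr-KD cells and at 291, 304 and 361 with NSD2-1, NSD2-2 and NSD2-3. NSD2-3 was the highest, and NSD2-1 lay between the Ctr-KD libraries. The log2 difference was 0.13 (95% interval -0.16 to 0.42, adjusted p = 0.809 in limma), and 0.040 without the NSD2-3 library. Among ligands, IGF2 was at 863 and 915 in Ctr-KD cells and at 824, 1085 and 818 with NSD2-1, NSD2-2 and NSD2-3, so that NSD2-2 was above and the other 2 below both Ctr-KD libraries. The log2 difference was 0.020 (95% interval -0.29 to 0.33, adjusted p = 0.977 in limma). IGF2 shares 1460 exon bases with the readthrough gene INS-IGF2 on the same strand, and the reads listed for INS-IGF2 equalled 96.6% to 97.9% of those of IGF2 in each library. On that strand IGF2 also shares 2711 exon bases with another protein-coding gene and 373 with a noncoding RNA gene, neither of them among the gene names counted. INS, the insulin gene, was at 0 in every library, and the counts of IGF2 and INS-IGF2 cannot be told apart. In GRCh37, IGF1R lies on chromosome 15 from 99191768 to 99507759 (plus strand) and IGF2 on chromosome 11 from 2150342 to 2179621 (minus strand).

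The ligands, receptors and binding proteins outside the 9 were at or near the limit of detection in these cells, INSR apart. IGFBP1 and INS were at 0 in all 5 libraries, IGF1 had 1 read in 1 Ctr-KD library, IGFALS and INSRR had at most 1 read, and IGFBPL1 had 2 reads in the NSD2-2 library alone. These lie at or under 3 reads, where a gene is not told from 0. INSR, the insulin receptor, was at 41.9 and 46.3 in Ctr-KD cells and at 42.3, 10.9 and 43.0 in NSD2-KD cells. Its low value with NSD2-2 rests on 10 reads, with an exact Poisson interval of 5.24 to 20.1 normalized counts, and its log2 difference was -0.67 (standard error 0.53, adjusted p = 0.764 in limma). H19, the neighbour of IGF2 in an imprinted region, had at most 2 reads, IGF2-AS, which shares 333 exon bases with IGF2 on the other strand, had at most 1 and TH had 0. The RNA-binding proteins IGF2BP1 (338 and 348 against 302, 272 and 420), IGF2BP2 (324 and 299 against 306, 341 and 393) and IGF2BP3 (422 and 448 against 312, 426 and 451) had overlapping groups, as did MRPL23, at 75.3 and 92.6 against 67.4 to 81.9.

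Per kilobase of exon sequence, which allows levels to be compared between genes, IGFBP5 (1852 normalized counts per kb, the Ctr-KD mean) and IGFBP4 (1728) stood highest, then IGFBP7 (1007), IGFBP3 (195.5), IGFBP6 (130.4), IGF2 (124.4), IGF2R (63.4), IGF1R (20.7) and IGFBP2 (7.61). The levels of IGFBP6 (123.2 and 137.6) and IGF2 (120.8 and 128.0) overlapped between Ctr-KD libraries, and the other neighbours did not. In NSD2-KD cells IGFBP6 (164.4) and IGFBP3 (161.2) stood in the other order, with overlapping libraries. IGFBP5 ranked 20 and 21 by this level in the Ctr-KD libraries and 17, 16 and 11 with NSD2-1, NSD2-2 and NSD2-3, among the 22191 names that matched 1 gene model. These levels depend on the length used. With the longest transcript as the length, IGF2 (159.3) stood above IGFBP6 (149.1), IGFBP3 was at 339.5 and IGF2R at 100.8. With the canonical transcript, a length chosen after seeing the data, IGFBP2 (25.5) stood above IGF1R (23.6), IGFBP3 was at 341.8 and IGF2R at 102.0.

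**Figure D4:**
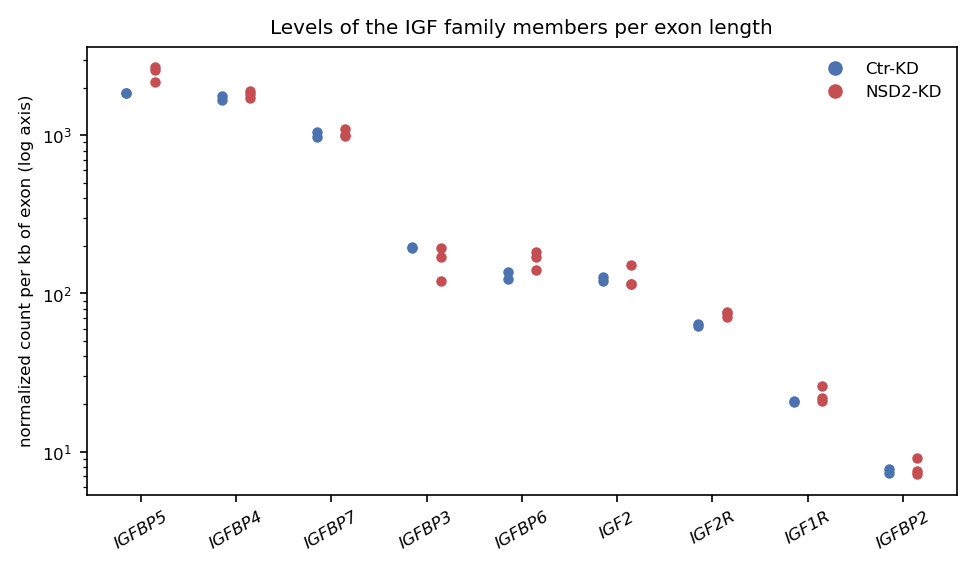
Normalized counts per kilobase of exon sequence (log axis) of the 9 genes in each library, ordered by the Ctr-KD mean. With this length IGFBP5 is highest at 1852 and IGFBP2 lowest at 7.61, while with the canonical transcript IGFBP2 is at 25.5 and IGF1R is lowest.

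The promoters of the 4 genes whose groups did not overlap are shown to let the sequences at their starts be compared, and whether any motif bears on the levels was not tested. They are RefSeq sequences of GRCh38.p14, 5′ to 3′ on the strand of the gene, from 250 bases before to 50 bases after the annotated start. Entries were found for 7 of the 9 genes, and IGF2 and IGFBP7 have none. Capitals mark TTTAAA in IGFBP5 (chr2:216695500-216695799, minus strand), GGGCGG in IGFBP6 (chr12:53097417-53097716, plus strand), TATATA in IGFBP3 (chr7:45921223-45921522, minus strand) and CACGTG in IGF2R (chr6:159968832-159969131, plus strand).
IGFBP5: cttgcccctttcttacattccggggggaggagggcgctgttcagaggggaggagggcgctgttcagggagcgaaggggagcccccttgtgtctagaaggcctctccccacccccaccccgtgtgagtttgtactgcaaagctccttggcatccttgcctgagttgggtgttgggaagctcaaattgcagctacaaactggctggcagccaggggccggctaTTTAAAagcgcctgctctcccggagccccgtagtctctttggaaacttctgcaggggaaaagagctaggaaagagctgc
IGFBP6: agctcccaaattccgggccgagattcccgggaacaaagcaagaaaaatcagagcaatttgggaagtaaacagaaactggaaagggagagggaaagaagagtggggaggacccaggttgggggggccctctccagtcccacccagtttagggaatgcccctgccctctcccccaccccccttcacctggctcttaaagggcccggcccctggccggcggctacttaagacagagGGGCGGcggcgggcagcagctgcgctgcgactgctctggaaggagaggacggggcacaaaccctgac
IGFBP3: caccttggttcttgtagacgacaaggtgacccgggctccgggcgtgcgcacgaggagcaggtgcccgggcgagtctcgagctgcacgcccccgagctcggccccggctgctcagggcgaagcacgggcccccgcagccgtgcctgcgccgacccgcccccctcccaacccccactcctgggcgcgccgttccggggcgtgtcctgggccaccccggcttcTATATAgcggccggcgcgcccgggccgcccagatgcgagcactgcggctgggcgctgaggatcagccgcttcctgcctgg
IGF2R: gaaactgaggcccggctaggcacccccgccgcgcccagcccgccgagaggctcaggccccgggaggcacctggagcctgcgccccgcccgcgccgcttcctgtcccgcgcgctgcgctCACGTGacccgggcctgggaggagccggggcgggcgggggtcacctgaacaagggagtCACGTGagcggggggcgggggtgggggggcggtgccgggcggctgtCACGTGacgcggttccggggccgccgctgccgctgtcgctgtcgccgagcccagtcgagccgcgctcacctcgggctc

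Motifs were searched on both strands in 35116 promoters of the same length. Shares of promoters are for a motif at any position in that length, not at the position given for a gene. The IGFBP5 promoter has TTTAAA at position -29 from the start (12.2% of all promoters hold it), and that of IGFBP3 has TATATA at -30 (3.99%). The promoter of IGFBP4, not shown, has TATAAA at -29 (11.5%). At least 1 of these related motifs, which can overlap, was in 22.6% of promoters. The IGF2R promoter holds CACGTG, which reads the same on both strands, at -132, -74 and -28, where 7.26% of promoters hold it at least once and 33 (0.094%) hold it at least 3 times. The IGFBP6 promoter has GGGCGG at -17, a motif found in 45.0% of promoters. Of the promoters shown, those of IGFBP3 (at -98 and -6) and IGF2R (6 matches) hold this motif as well, where it is not in capitals. GC content was 59.0% for IGFBP5, 61.7% for IGFBP6, 74.7% for IGFBP3 and 78.7% for IGF2R.

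Around the 9 genes, 111 genes of 7 lists of IGF biology were followed, of which 98 were tested and 0 passed the adjusted threshold in limma (0.0884% of all tested genes did), with 9 at an unadjusted p under 0.05 (9.18% of all tested genes), 6 higher and 3 lower. edgeR and DESeq2 also called 0. The groups did not overlap in 22 of them, 15 higher and 7 lower (27.7% of all tested genes did not overlap, 13.8% higher and 13.9% lower). The list of proteases that cleave binding proteins, and their inhibitors, had 13 tested genes with a median log2 difference of 0.12, with 3 higher and 0 lower in all 3 NSD2-KD libraries. PLAT, the tissue plasminogen activator, was at 321 and 368 against 446, 451 and 458 (log2 difference 0.39, adjusted p = 0.295 in limma), and PAPPA, which cleaves IGFBP4, at 424 and 458 against 533, 663 and 470 (0.32, adjusted p = 0.577 in limma). Of 17 tested receptor adaptors and feedback genes (median 0.026), 2 were higher and 0 lower, namely SH2B1 and PTPN1. SH2B1, an adaptor of the insulin and IGF1 receptors, was at 91.6 and 100 against 105 to 126, and PTPN1, a phosphatase that acts on these receptors, was at 360 and 368 against 412, 389 and 400.

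The PI3K branch had 26 tested genes and a median of -0.042, with 3 higher and 4 lower in all 3 NSD2-KD libraries. For this count and those of the lists below, the shares of all tested genes were 13.8% higher and 13.9% lower. PDPK1, the kinase that activates AKT, was at 149 and 141 against 181, 209 and 251 (0.55, adjusted p = 0.323 in limma), and AKT2 at 230 and 252 against 364, 364 and 303 (0.51, adjusted p = 0.267 in limma). MTOR was at 299 and 306 against 276, 97.2 and 242, with NSD2-2 far below the other siRNAs, and PIK3R3, a regulatory subunit, at 84.8 and 100.8 against 47.8, 78.6 and 70.3. In the RAS-MAPK branch (16 tested, median -0.038, 3 higher and 3 lower), MAP2K2 was at 381 and 362 against 444, 481 and 465 (0.32, adjusted p = 0.382 in limma) and RPS6KA3 at 176 and 184 against 215, 239 and 188. NRAS was at 350 and 360 against 224, 147 and 316 (log2 difference -0.70, adjusted p = 0.474 in limma), and BRAF at 37.2 and 32.9 against 30.4, 30.6 and 19.5. With the replicate number as a block, NRAS had a log2 difference of -0.96 (adjusted p = 0.0389 in limma). That fit leaves out NSD2-3, the siRNA with which NRAS was nearest to Ctr-KD cells. The list of IGF2R ligand tagging and sorting had 20 tested genes and a median of 0.089, with 4 higher and 0 lower. PLIN3, a protein reported to bind the IGF2R tail, was at 639 and 635 against 749, 894 and 750 (0.32, adjusted p = 0.407 in limma). AP1M1, a subunit of a clathrin adaptor, was at 285 and 276 against 340, 326 and 321.

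**Figure D5:**
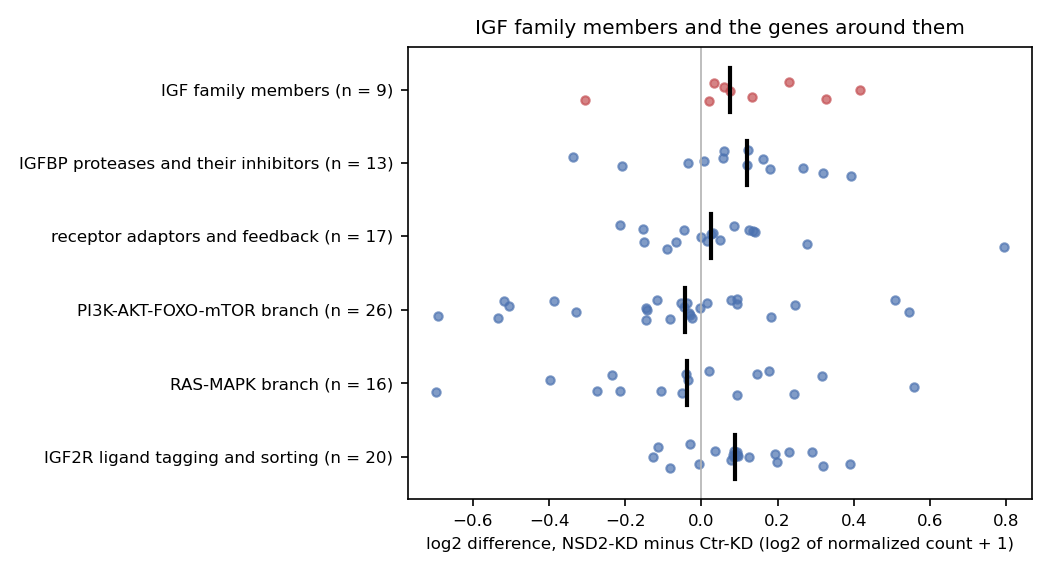
Log2 differences (NSD2-KD minus Ctr-KD) of the 9 genes and of the tested genes in 5 lists of IGF biology, with 1 point for each gene and a black bar at each median. The medians of the 5 lists lie between -0.042, for the PI3K branch, and 0.12, for the proteases, and the 9 genes have a median of 0.08.

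The 5 tested genes with the profile most like that of IGFBP5 over the 5 libraries, by Euclidean distance in log2 values centred on the Ctr-KD mean, were WWC1 (distance 0.019), CITED2 (0.068), CNNM4 (0.069), RNF13 (0.099) and MICA (0.10). The median distance to IGFBP5 over 11312 genes was 0.876, and 56 genes lay within 0.2. WWC1 (12.3 to 18.5 normalized counts over the 5 libraries), MICA (18.1 to 26.4) and CNNM4 (29.8 to 45.9) had few reads. Counting error is wide at such levels, so that their distances and their order are uncertain. CITED2 was at 513 and 511 in Ctr-KD cells and at 592, 705 and 713 with NSD2-1, NSD2-2 and NSD2-3. These 5 genes were picked for their likeness to IGFBP5, so that an order of siRNAs shared with it is not a separate result.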

How the data were processed

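The libraries were poly(A)-selected mRNA-seq. Per the methods, the authors used Trimmomatic on single-end reads, HISAT2 for mapping to hg19, SAMtools to keep unique reads and featureCounts to count them. The annotation and strand setting are not given in the sources used here. The deposited signal is each gene's read count divided by 1 DESeq2 size factor a library, by the authors, so that a change common to all genes would not show. 100% of values were whole reads within 0.001. The authors' table of fold changes and p-values was not used. Genes with a mean of at least 10 were tested with limma 3.58.1 (R 4.3.3), with its trend option, on log2(normalized count + 1), a scale that understates changes of low genes, with Benjamini-Hochberg adjustment over all tested genes, two-sided, at 0.05. Alternatives used edgeR 4.0.16 and DESeq2 1.42.0 on the recovered reads. Named genes were the members, NSD2, in each list the 2 largest rises and falls among genes whose groups do not overlap, all genes of 2 short lists, and the 5 nearest profiles to IGFBP5. Members, lists and rules were chosen with earlier results of these data known. Gene positions are GENCODE on GRCh37, and sequences are RefSeq on GRCh38.p14. A marker gene is not reported here.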

Additional observations from a re-analysis of the deposited data

How the results depend on the processing

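No member was called in the alternatives run (pseudocounts of 0.5 and 5, no filter or a mean of 50, limma without the trend, robust or voom, TMM scaling, edgeR, DESeq2, the replicate block, averaged Ctr-KD libraries, a threshold of 0.1, each library left out) except under quantile normalization, which called 1, IGFBP5. IGFBP5, IGFBP6, IGF1R, IGF2R and IGFBP3 kept their direction in all of them. Quantile normalization gave IGFBP4 a log2 difference of -0.012 and IGFBP7 one of -0.012. With each library left out in turn, IGF2 ran from -0.11 to 0.089 (-0.022 without Ctr-KD replicate 1), IGFBP7 from -0.017 to 0.082 and IGFBP2 from -0.038 to 0.13. The cause was not tested. The replicate numbers of NSD2-KD cells are siRNA numbers, and the labels give no other link between same-numbered libraries. With the Ctr-KD libraries taken as deviations from their mean, the correlations of the same-numbered pairs were -0.0152 and -0.0267. The other Ctr-KD library gave 0.0152 and 0.0267, values fixed by the first, since deviations of 2 libraries from their mean mirror each other. These correlations cannot show whether such a pair shares more than a number, since the Ctr-KD libraries differ by little more than counting noise. With the replicate number as a block, NSD2-3 has no partner and drops out of the comparison, IGFBP5 had a log2 difference of 0.36, and 1 gene of the 7 lists was called, NRAS (-0.96, adjusted p = 0.0389 in limma). Over all tested genes, 10 were called, against 1 without the trend, 16 with edgeR, 58 with DESeq2, 102 with the block, 0 with averaged Ctr-KD libraries or without either Ctr-KD replicate, 16, 4 and 30 without NSD2-KD replicates 1, 2 and 3, and 17 at a threshold of 0.1. Counting error is widest for genes with few reads, such as IGFBP2, and 13 genes of the 7 lists were below the filter.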

Other observations

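In 2 genes of the lists the siRNAs gave values far from each other. PIK3CB, a catalytic subunit of PI3K, was at 78.1 and 79.2 normalized counts in Ctr-KD cells and at 98.5, 88.5 and 24.4 with NSD2-1, NSD2-2 and NSD2-3, so that it was low with NSD2-3 alone. SOCS1, a feedback inhibitor of cytokine and insulin signaling, was at 31.4 and 23.7 in Ctr-KD cells and at 25.8, 56.8 and 75.2 in NSD2-KD cells, and its log2 difference was 0.79 (adjusted p = 0.619 in limma). Both genes were named after their values were seen.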
